A study of Homo sapiens with 12 samples.

Results

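The fatty acid elongases ELOVL1 to ELOVL7 and the desaturases FADS1, FADS2 and FADS3 form a set of 10 genes, chosen by name as the 2 families of enzymes that lengthen and desaturate fatty acyl chains, and chosen because ELOVL7 and FADS1 were strongly lower after CHKA knockdown in these same samples. All 10 were among the 54127 genes in the count tables and 9 were among the 14501 genes that passed the filter on low counts. The families' values in this comparison, with their calls at an adjusted p below 0.05, are therefore given as a description. For single members, adjusted p-values are printed only for ELOVL1, ELOVL5 and FADS3 under another scaling, where they were not called. RNA was sequenced from C4-2, a prostate cancer line derived from LNCaP cells, after transfection of 50 nM of an siRNA pool against CHKA (siCHKA, 6 samples) or of a control pool (siNT, 6 samples). CHKA encodes choline kinase alpha, which phosphorylates choline at the start of phosphatidylcholine synthesis. Both groups shared the same line and the same handling: growth in RPMI with 10% FBS, reverse transfection with Lipofectamine RNAiMAX, and TruSeq libraries from total RNA of cells described as flow sorted. Every sample was one line treated with transient siRNA, and the labels do not say whether the 6 samples of a group were separate cultures. The study's legends name biological triplicates for its knockdown gene lists and 6 biological replicates for some genes regulated by the androgen receptor. The p-values below therefore measure only the spread between these samples. The sequences of the siRNAs were not used here.

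Elongases sit in the endoplasmic reticulum and catalyse the condensation of an acyl-CoA with malonyl-CoA, the rate-limiting step of each round of elongation. ELOVL1, ELOVL3, ELOVL6 and ELOVL7 work mainly on saturated and monounsaturated chains, ELOVL2 and ELOVL5 on polyunsaturated chains, and ELOVL4 makes chains of very great length. FADS2 and FADS1, the delta-6 and delta-5 desaturases, alternate with ELOVL5 and ELOVL2 to turn dietary linoleic and alpha-linolenic acid into arachidonic acid and other highly unsaturated acids. FADS3 acts on sphingoid bases. Much of this group is a known target of the lipid-sensing factors SREBP-1c, LXR and PPAR alpha, and ELOVL7 has been studied as an elongase of prostate cancer cells.

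The targeted CHKA transcript averaged 40.7 ± 2.55 CPM in the siNT samples and 2.75 ± 1.03 CPM in the siCHKA samples (SD, n = 6 each), where CPM are TMM-normalized counts relative to the reads on genes. With a log2 fold change of -3.88 (SE 0.14, adjusted p = 5.89e-13) it matched the labels. Between 10685184 and 24246055 reads fell on genes per sample, so that 3 counts, the limit that a count of 0 allows, corresponded to 0.124 to 0.281 CPM (counting error only). All 10 prostate epithelium markers examined were detected, with sums of 5268 to 6664 CPM after siCHKA and 6268 to 7886 CPM after siNT. In total RNA of a culture, fewer cells of a kind and less RNA per cell cannot be told apart. The siCHKA samples formed 2 sets: after the group mean was subtracted from each gene, samples 1, 3 and 5 correlated with each other (r from 0.201 to 0.275 across genes), as did samples 2, 4 and 6 (r from 0.291 to 0.443), while every correlation between the sets was negative (r from -0.605 to -0.446). The siNT samples gave r from -0.42 to 0.148. These values are descriptions across genes of the same libraries. The log2 fold change of CHKA itself was -3.61 without samples 1, 3 and 5 and -4.27 without samples 2, 4 and 6. The members' fold changes are given below with and without each set.

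ELOVL7 had the largest fold change of the 9 members tested, and it was lower. It was measured at 94.0 CPM at the lowest, 102 at the median and 121 at the highest of the 6 siCHKA samples, and at 418, 441 and 463 CPM in the siNT samples. Every siCHKA sample lay below every siNT sample by a wide margin, and siCHKA samples 2, 4 and 6 (121, 108 and 115 CPM) were above samples 1, 3 and 5 (95.5, 95.6 and 94.0 CPM). The means were 105 ± 11.7 and 443 ± 17.6 CPM (SD, n = 6 each). The siCHKA level was thus 4.22-fold lower, at a log2 fold change of -2.08 (SE 0.07, 95% confidence interval -2.22 to -1.93). It was -1.95 without samples 1, 3 and 5 and -2.22 without samples 2, 4 and 6. ELOVL7 (ENSG00000164181) lies on the minus strand at chr5:60751791-60844274 (GRCh38, GENCODE 44).

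FADS1, the delta-5 desaturase (ENSG00000149485, minus strand, chr11:61799627-61829318), followed with a level of 153 CPM at the lowest, 174 at the median and 180 at the highest of the siCHKA samples, against 399, 416 and 444 CPM after siNT. The groups did not overlap, and the spread within each was small beside the distance between them. The means of 170 ± 11.1 and 418 ± 14.97 CPM (SD, n = 6 each) gave a log2 fold change of -1.30 (SE 0.05, 95% confidence interval -1.41 to -1.19), a level 2.46-fold lower. Leaving out samples 1, 3 and 5 gave -1.38, and leaving out samples 2, 4 and 6 gave -1.22.

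FADS2, the delta-6 desaturase and the first step of the polyunsaturated pathway (ENSG00000134824, plus strand, chr11:61792980-61867354), had the most reads of the members. It was at 692 CPM at the lowest, 799 at the median and 1008 at the highest after siCHKA, and at 1621, 1784 and 2001 CPM after siNT. Here the 2 sets of siCHKA samples stood apart, with 694, 692 and 723 CPM in samples 2, 4 and 6 and 875, 952 and 1008 CPM in samples 1, 3 and 5, yet all 6 were below all siNT samples. The log2 fold change was -1.12 (SE 0.09, 95% confidence interval -1.32 to -0.92), a level 2.17-fold lower. It was -1.36 without samples 1, 3 and 5 and -0.92 without samples 2, 4 and 6.

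FADS1 and FADS2 lie on opposite strands, and by the coordinates given above FADS1 lies wholly within the annotated span of FADS2. Their exons share 490 bases, which is 4.79% of the exon bases of FADS1 and 4.64% of those of FADS2. Whether strand was used in counting is not stated in the sources used here, so the source of reads in that stretch is uncertain. FADS2 also shares 49 exon bases (0.464% of its own) with FEN1 on the same strand, a flap endonuclease of DNA replication that fell from 86.6 ± 7.09 to 34.7 ± 3.14 CPM (SD, n = 6 each, log2 fold change -1.32, SE 0.07, adjusted p = 3.36e-11).

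**Figure D1:**
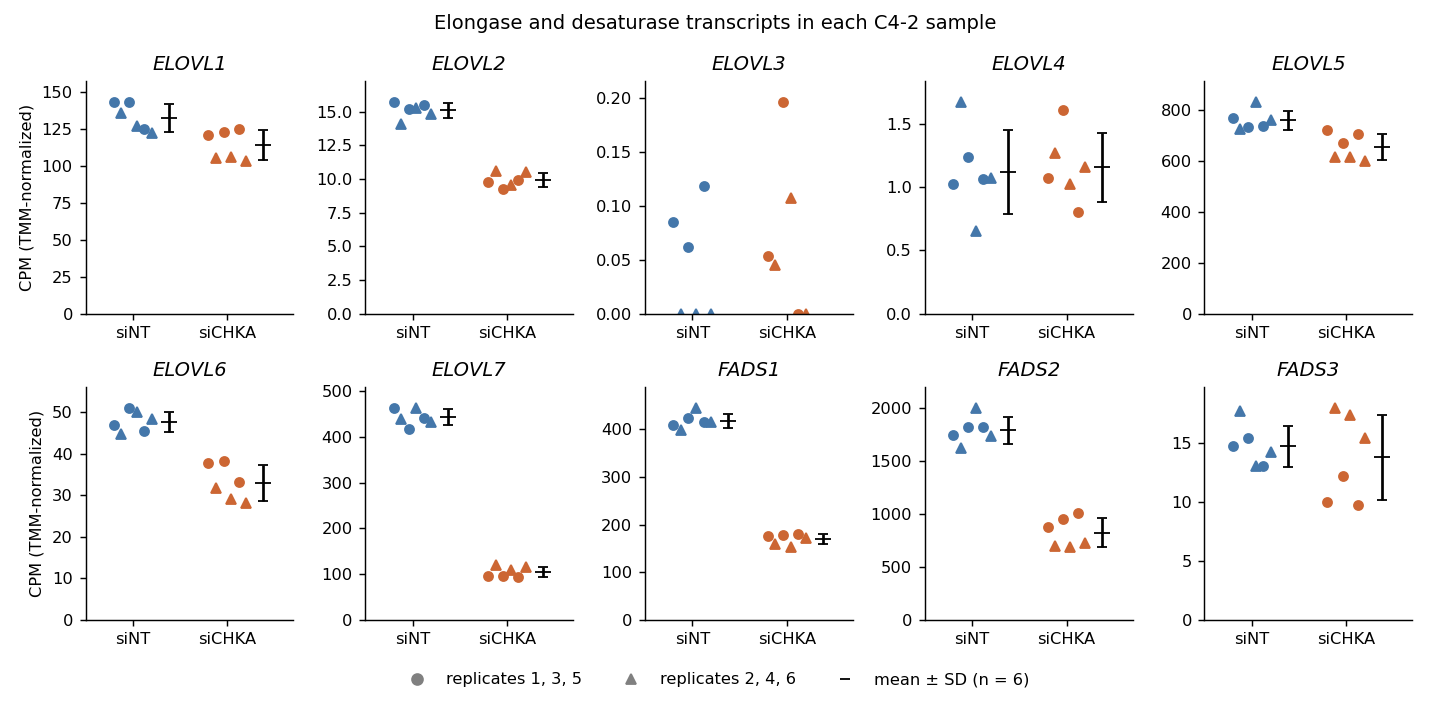
TMM-normalized CPM of each elongase and desaturase in the 6 siNT (blue) and 6 siCHKA (orange) samples, circles for samples 1, 3 and 5 and triangles for 2, 4 and 6, with mean ± SD as bars (no bar for ELOVL3, which had at most 4 reads in a sample). For ELOVL7 all siCHKA points lie at or below 121 CPM and all siNT points at or above 418 CPM, and for FADS3 the siCHKA circles lie below the triangles.

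Letters before the transcription starts of ELOVL7, FADS1 and FADS2 are shown because they are the members with the largest fold changes. The RefSeq table (GRCh38.p14) holds starts for all 10 members, with 2 for FADS2, and the stretches below are the longest runs within the 250 bases before a start that lie in no exon of GENCODE 44. Capitals mark GC boxes (GGGCGG on either strand).
ELOVL7, chr5:60844275-60844519, minus strand: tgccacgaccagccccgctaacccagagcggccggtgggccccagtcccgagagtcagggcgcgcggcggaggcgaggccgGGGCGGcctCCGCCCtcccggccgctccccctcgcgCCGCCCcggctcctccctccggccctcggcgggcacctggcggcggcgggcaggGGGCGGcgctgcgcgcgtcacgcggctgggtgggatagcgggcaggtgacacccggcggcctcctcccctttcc
FADS1, chr11:61817198-61817253, minus strand: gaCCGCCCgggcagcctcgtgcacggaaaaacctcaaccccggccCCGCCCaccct
FADS2, the upstream of its 2 starts, chr11:61816149-61816202, plus strand: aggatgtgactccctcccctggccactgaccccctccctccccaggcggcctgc
The ELOVL7 stretch of 245 bases holds 4 GC boxes, the FADS1 stretch of 56 bases 2 and the FADS2 stretch of 54 bases 0. The stretch at the other FADS2 start, of 102 bases and not shown, holds 1. The stretches differ in length, so their counts are not compared. The start of FADS1 lies 800 bases from the upstream FADS2 start and 599 bases from the other, with the 2 genes read towards each other.

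Over the whole 300-base windows (250 bases before to 50 after a start), 4 motifs were looked for on both strands. The sterol element TCACNCCAC was in no member and in 1.13% of the 35116 RefSeq windows. The E-box CACGTG, in 7.26% of all windows, was in those of ELOVL4 and ELOVL5. The CCAAT box, in 34.6% of all windows, was in those of ELOVL1, ELOVL3, ELOVL4, ELOVL5 and FADS3 and in 1 of the 2 of FADS2, and in neither ELOVL7 nor FADS1. GGGCGG was in 45.0% of all windows and, among the members, was missing from that of ELOVL5 and from 1 of the 2 of FADS2. These are matches of letters only. In the window of ELOVL1 the CCAAT box shares letters with a GC box.

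ELOVL2 and ELOVL6 showed smaller fold changes. ELOVL2, which elongates polyunsaturated chains towards docosahexaenoic acid (ENSG00000197977, minus strand, chr6:10980759-11044305), was at 9.29 CPM at the lowest, 9.84 at the median and 10.6 at the highest after siCHKA, and at 14.1, 15.2 and 15.7 CPM after siNT. Its log2 fold change was -0.60 (SE 0.06, 95% confidence interval -0.73 to -0.47), and the siCHKA level was 65.8% of the siNT level. ELOVL2 was steady across the sets of siCHKA samples, at -0.56 without samples 1, 3 and 5 and -0.64 without samples 2, 4 and 6.

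ELOVL6, which elongates palmitate to stearate (ENSG00000170522, minus strand, chr4:110045846-110199199), was at 28.1 CPM at the lowest, 32.5 at the median and 38.2 at the highest after siCHKA, and at 44.9, 47.6 and 51.0 CPM after siNT. The groups did not overlap. The log2 fold change of -0.53 (SE 0.08, 95% confidence interval -0.69 to -0.37) became -0.69 without siCHKA samples 1, 3 and 5 and -0.38 without samples 2, 4 and 6.

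ELOVL5 and ELOVL1 had the smallest fold changes among the members called lower. ELOVL5, the elongase between FADS2 and FADS1 in the polyunsaturated pathway (ENSG00000012660, minus strand, chr6:53267398-53349179), was at 599 CPM at the lowest, 645 at the median and 722 at the highest after siCHKA, and at 725, 749 and 831 CPM after siNT. Its groups only just failed to overlap. ELOVL1, which makes the saturated chains of sphingolipids (ENSG00000066322, minus strand, chr1:43363398-43368074), ranged from 103 to 125 CPM after siCHKA and from 122 to 143 CPM after siNT, so its groups overlapped. The log2 fold changes were -0.21 for ELOVL5 (SE 0.06, 95% confidence interval -0.34 to -0.09) and -0.22 for ELOVL1 (SE 0.06, 95% confidence interval -0.35 to -0.08). Both calls depended on siCHKA samples 2, 4 and 6: without them the values were -0.11 and -0.10 and no longer called, and without samples 1, 3 and 5 they were -0.32 and -0.35. They also depended on the scaling. The TMM factors ran from 1.021 to 1.073 in the siCHKA samples and from 0.922 to 0.965 in the siNT samples. With the reads on genes as the only scaling, an alternative chosen after seeing the data, ELOVL5 ranged from 643 to 751 CPM after siCHKA and from 688 to 766 CPM after siNT, so that its groups overlapped. The log2 fold changes were then -0.06 for ELOVL5 (adjusted p = 0.302) and -0.07 for ELOVL1 (adjusted p = 0.314), neither of them called. That scaling moved the median of all tested genes by 0.15, from 0.03 to 0.19, and relative to the median ELOVL5 was at -0.25 and ELOVL1 at -0.25 with TMM, and at -0.25 and -0.26 without it.

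FADS3, ELOVL4 and ELOVL3 were not called. FADS3 (ENSG00000221968, minus strand, chr11:61873519-61892051) ranged from 9.75 to 17.9 CPM after siCHKA and from 13.0 to 17.7 CPM after siNT. Its log2 fold change was -0.09 (SE 0.14, 95% confidence interval -0.39 to 0.22). Within the siCHKA group samples 1, 3 and 5 were low (9.94, 12.2 and 9.75 CPM) and samples 2, 4 and 6 high (17.9, 17.3 and 15.4 CPM), the reverse of the order of FADS2. Without samples 2, 4 and 6 the FADS3 value was -0.46 and called lower. Without samples 1, 3 and 5 it was 0.19 and not called, with a 95% confidence interval from -0.02 to 0.39 that included 0. Without TMM it was 0.07 (adjusted p = 0.71).

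ELOVL4, the elongase of the longest chains (ENSG00000118402, minus strand, chr6:79914814-79947553), rested on 10 to 39 reads per sample, at 1.16 ± 0.273 CPM after siCHKA and 1.12 ± 0.331 CPM after siNT (SD, n = 6 each, log2 fold change 0.03, SE 0.22, 95% confidence interval -0.42 to 0.49). ELOVL3 (ENSG00000119915, plus strand, chr10:102226299-102229589) had 0 to 4 reads per sample in either group and did not pass the filter. No fold is given for it.

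In all, 7 of the 9 tested members were called lower (adjusted p below 0.05), 0 higher and 2 neither, with a median log2 fold change of -0.53. The count of higher members in edgeR's test was also 0 at an unadjusted p below 0.05, and 0 by DESeq2. Across all tested genes 4371 were lower (30.1%) and 4650 higher (32.1%), with a median of 0.03. In 6 members, ELOVL2, ELOVL5, ELOVL6, ELOVL7, FADS1 and FADS2, every siCHKA sample was below every siNT sample, as it was in 21.5% of all tested genes. Since this contrast chose the families, nothing is read from these counts. Without TMM 5 members were called lower: ELOVL7 (-1.92), FADS1 (-1.15), FADS2 (-0.97), ELOVL2 (-0.45) and ELOVL6 (-0.38). Of all 14501 tested genes 2995 were then lower and 6666 higher.

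**Figure D2:**
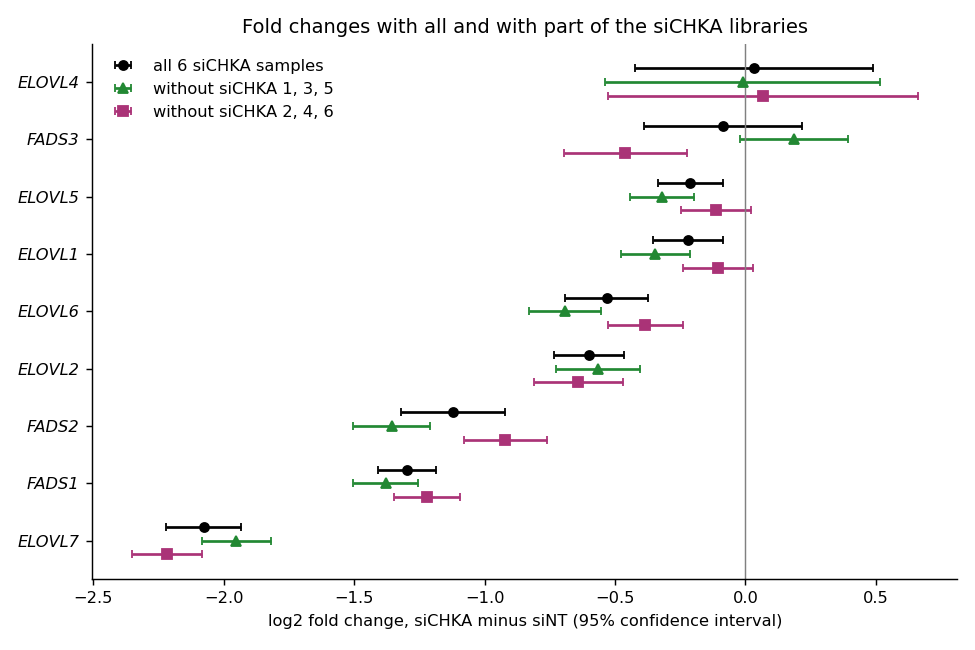
Log2 fold change (siCHKA minus siNT) with its 95% confidence interval for the 9 tested members, with all 6 siCHKA samples (black), without samples 1, 3 and 5 (green) and without samples 2, 4 and 6 (purple). ELOVL7 stays between -2.22 and -1.95 and FADS1 between -1.38 and -1.22, while FADS3 changes sign.

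Levels of different members were compared per length, as CPM per kilobase of all exons of a gene joined. After siNT, ELOVL5 was at 199 ± 10.2, FADS2 at 170 ± 11.98, ELOVL7 at 99.4 ± 3.94, ELOVL1 at 52.9 ± 3.76 and FADS1 at 40.8 ± 1.46 CPM per kb (SD, n = 6 each). ELOVL6 was at 6.57 ± 0.334, ELOVL2 at 3.78 ± 0.144, FADS3 at 2.33 ± 0.279 and ELOVL4 at 0.371 ± 0.110 CPM per kb. No neighbours in this order overlapped over the 6 siNT samples, although the lowest ELOVL5 sample (190.1 CPM per kb) was just above the highest FADS2 sample (189.6 CPM per kb). The order at the top depended on the length used. With the longest transcript as the length, FADS2 (353 CPM per kb) was above ELOVL5 (246 CPM per kb), and FADS1 (95.7 CPM per kb) was above ELOVL1 (81.6 CPM per kb).

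After siCHKA, ELOVL5 was at 172 ± 13.6 and FADS2 at 78.1 ± 13.2 CPM per kb (SD, n = 6 each). ELOVL7 dropped in the order, to 23.5 ± 2.62 CPM per kb, below ELOVL1 at 45.4 ± 4.06 CPM per kb. FADS1 was at 16.6 ± 1.09 CPM per kb. FADS3 (1.55 to 2.84 CPM per kb) and ELOVL2 (2.33 to 2.65 CPM per kb), neighbours in that order, overlapped.

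The make-up of the elongase transcripts therefore differed between the groups. ELOVL7 gave 27.4 ± 0.632% of the elongase sum per length after siNT and 9.56 ± 1.60% after siCHKA, while ELOVL5 gave 55.0 ± 1.24% and 69.2 ± 1.21% and ELOVL1 14.6 ± 1.14% and 18.3 ± 0.673% (SD, n = 6 each). The sum over the elongases was 362 ± 12.8 CPM per kb after siNT and 248 ± 15.6 after siCHKA. For the FADS genes the sum was 213 ± 13.2 and 96.9 ± 13.7 CPM per kb, with FADS2 at 79.7 ± 0.717% of it after siNT and 80.3 ± 2.29% after siCHKA. FADS1 gave 19.2 ± 0.536% and 17.3 ± 1.46%. The FADS1 share ranged from 18.5 to 19.97% after siNT and from 15.4 to 19.03% after siCHKA, and FADS3 gave 1.103 ± 0.192% and 2.36 ± 0.909%. Among the elongases the shares of ELOVL7, ELOVL5 and ELOVL1 each did not overlap between the groups. Shares of a sum move together by construction. The families were chosen for the falls of ELOVL7 and FADS1, so nothing further is read from these shares.

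**Figure D3:**
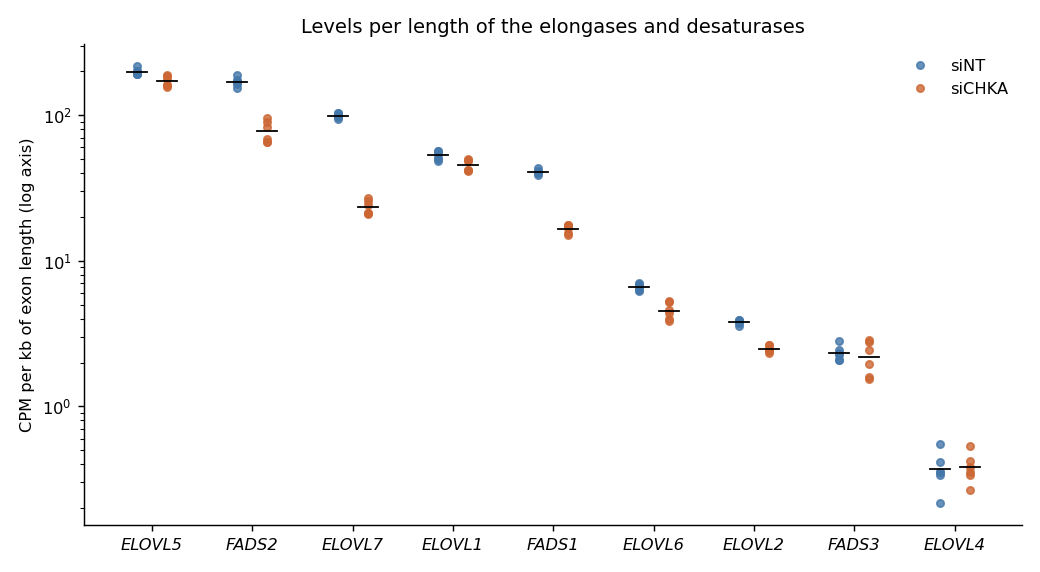
CPM per kb of joined exon length (log axis) of the 9 tested members in each siNT (blue) and siCHKA (orange) sample, with the mean as a black line. ELOVL7 lies above ELOVL1 after siNT (99.4 against 52.9 CPM per kb) and below it after siCHKA (23.5 against 45.4 CPM per kb).

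The genes with the pattern most like that of a member were sought among the 11769 protein-coding genes that averaged 1 CPM or more, by the root mean square difference of log2 CPM centred over the 12 samples. For ELOVL7 they were NEMP1, a protein of the nuclear envelope, at 0.08, URI1, a prefoldin-like chaperone subunit, at 0.08, and AAGAB, an assembly factor of adaptor complexes, at 0.08, against a median of 1.05 over all genes. For FADS1 they were the mitotic kinase AURKA at 0.04, the midbody protein CEP55 at 0.04 and the spindle midzone protein PRC1 at 0.06, against a median of 0.67. The members were less alike than these: FADS2 ranked 154 of the 11769 in likeness to FADS1 (0.14), and FADS1 ranked 279 in likeness to ELOVL7 (0.42). The measure spans both groups, so it largely follows the fold change, for which ELOVL7 and FADS1 were chosen. The log2 fold changes were -2.01 for NEMP1, -1.96 for URI1 and -2.01 for AAGAB. They were -1.25 for AURKA, -1.29 for CEP55 and -1.26 for PRC1. Shared regulation was not tested.

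The other enzymes of the elongation cycle went in both directions. Of 7 such genes 4 were tested, with 2 lower (50%), 1 higher (25%) and 1 not called (median log2 fold change -0.26). The shares of all tested genes were 30.1% lower and 32.1% higher. HACD2, a dehydratase of the cycle, fell from 286 ± 14.4 to 149 ± 3.39 CPM (log2 fold change -0.94, SE 0.05, adjusted p = 1.67e-11), and HSD17B12, the ketoacyl-CoA reductase, from 55.2 ± 3.52 to 37.3 ± 1.39 CPM (log2 fold change -0.56, SE 0.05, adjusted p = 5.94e-08; SD, n = 6 throughout). In both, no siCHKA sample reached the siNT range. TECR, the enoyl-CoA reductase, rose by 0.15 (adjusted p = 0.0197) with overlapping groups, and the call was lost without siCHKA 5 (0.13), siNT 4 (0.12) or siNT 5 (0.14), without siCHKA samples 1, 3 and 5 (0.08) and with no filter on low counts (0.13). For the dehydratase HACD3 the value was 0.05 (adjusted p = 0.376), and without TMM it was 0.20 and called, with TECR at 0.31.

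Other desaturases and the cytochrome b5 system that feeds them electrons also changed in both directions. Of 11 tested genes 7 were lower (63.6%), 3 higher (27.3%) and 1 was not called (median -0.28), beside 30.1% lower and 32.1% higher of all tested genes. The stearoyl-CoA desaturases were both lower, SCD5 from 21.3 ± 2.27 to 12.2 ± 0.679 CPM (log2 fold change -0.79, adjusted p = 8.55e-08) and SCD from 1435 ± 158 to 1106 ± 169 CPM (log2 fold change -0.37, adjusted p = 0.00269; SD, n = 6 each). SCD, like FADS2, was lower in siCHKA samples 2, 4 and 6 (912, 940 and 1016 CPM) than in samples 1, 3 and 5 (1268, 1236 and 1267 CPM), and its call was lost without samples 2, 4 and 6 (log2 fold change -0.19, adjusted p = 0.0651), whereas without samples 1, 3 and 5 the value was -0.59 (adjusted p = 2.54e-05). The log2 fold change was -0.98 for the electron carrier CYB5B (adjusted p = 8.26e-11) and -0.54 for the reductase CYB5R1 (adjusted p = 3.29e-06). The dihydroceramide desaturase DEGS1 rose by 0.47 (adjusted p = 9.87e-06), the reductase CYB5R2 by 0.71 (adjusted p = 3.82e-06) and the carrier CYB5A by 0.23 (adjusted p = 0.00548).

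Of 18 tested genes that supply and activate fatty acids, 5 were lower (27.8%), 6 higher (33.3%) and 7 not called (median 0.04), shares near the 30.1% and 32.1% of all tested genes. Without TMM 2 were lower and 8 higher, where 2995 of all 14501 tested genes were lower and 6666 higher. ACSS2, which makes acetyl-CoA from acetate, fell from 65.6 ± 3.34 to 21.8 ± 0.849 CPM (SD, n = 6 each, log2 fold change -1.59, SE 0.05, adjusted p = 1.04e-13). FASN, the fatty acid synthase that makes palmitate, had a log2 fold change of -0.42 (SE 0.15, adjusted p = 0.0244). FASN reached 854, 1018 and 1011 CPM in siCHKA samples 2, 4 and 6 and 1334, 1700 and 1734 CPM in samples 1, 3 and 5, against 1471 to 2061 CPM after siNT, and its call was lost without samples 2, 4 and 6 (-0.10, adjusted p = 0.429) and also without siCHKA 4 (-0.37), siCHKA 6 (-0.36) or siNT 5 (-0.36) alone, and without TMM (-0.28, adjusted p = 0.111). Without siCHKA samples 1, 3 and 5 FASN was at -0.84 (adjusted p = 4.04e-06). SLC27A4, a fatty acid transporter, was at -0.39 (adjusted p = 0.00059), and at -0.25 without samples 2, 4 and 6 and -0.55 without samples 1, 3 and 5. The acyl-CoA synthetase ACSL3 was at -0.25 (adjusted p = 0.00265), losing its call without samples 2, 4 and 6 (-0.13, adjusted p = 0.0872) and without TMM (-0.10, adjusted p = 0.139), and at -0.38 (adjusted p = 4.03e-05) without samples 1, 3 and 5. ACSL6 rose by 1.56 (adjusted p = 2.79e-09), ACSL1 by 0.70 (adjusted p = 2.69e-07) and the transporter SLC27A1 by 0.44 (adjusted p = 3.57e-05). The acetyl-CoA carboxylase gene ACACA was not analysed here.

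Of 19 regulators of elongase and desaturase transcription, 7 were lower (36.8%), 6 higher (31.6%) and 6 not called (median 0.05), again near the shares of all tested genes. Without TMM 6 were lower and 10 higher, where 2995 of all 14501 tested genes were lower and 6666 higher. On the SREBP side, the log2 fold change was -0.41 for SREBF1 (adjusted p = 9.31e-06), -0.30 for SREBF2 (adjusted p = 0.00238) and -0.73 (adjusted p = 3.49e-06) for INSIG1, which retains SREBP in the endoplasmic reticulum and is itself an SREBP target. The call of SREBF2 was lost without siCHKA samples 2, 4 and 6 (-0.14, adjusted p = 0.0586) and without TMM (-0.15, adjusted p = 0.0698), and without samples 1, 3 and 5 the value was -0.48 (adjusted p = 4.28e-06). Other genes of that side were named here after their values were seen. INSIG2 (-0.53, adjusted p = 0.000294) and SPRING1 (-0.40, adjusted p = 0.000121) were lower too. SCAP (0.01, adjusted p = 0.938), MBTPS1 (-0.03, adjusted p = 0.592) and MBTPS2 (0.16, adjusted p = 0.0609) were not called. Without TMM SCAP, MBTPS1 and MBTPS2 were called higher. Among the nuclear receptors, PPARD was lower (-0.72, adjusted p = 5.22e-08), while PPARA (0.78, adjusted p = 1.13e-05), PPARG (0.62, adjusted p = 2.5e-06) and the LXR gene NR1H3 (0.49, adjusted p = 7.89e-06) rose. These are levels of transcripts and not of the active factors.

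Sterol genes driven by SREBP were mostly lower: 11 of 15 tested were lower (73.3%), 0 higher and 4 were not called (edgeR, median -0.32). Of all tested genes 30.1% were lower and 32.1% higher. At an unadjusted p below 0.05, and by DESeq2, 0 were higher too. Under the alternatives 1 was called higher without siCHKA samples 2, 4 and 6, 1 without siCHKA 2, 4 or 6 alone, and 1 with 1 count file per sample. Without TMM 8 were lower and 2 higher, HMGCS1 and MVK, both of the mevalonate pathway and named here after their calls were seen. Under that scaling 2995 of all 14501 tested genes were lower and 6666 higher. The log2 fold change was -0.56 for the desaturase SC5D (adjusted p = 2.21e-07) and -0.64 for the sterol carrier STARD4 (adjusted p = 2.88e-08).

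Of 19 tested genes that use long and unsaturated chains, 8 were lower (42.1%), 7 higher (36.8%) and 4 not called (median 0.00 to 2 decimals). The shares of all tested genes were 30.1% and 32.1%. Without TMM 5 of the users were lower and 8 higher, where 2995 of all 14501 tested genes were lower and 6666 higher. CERS6, a ceramide synthase of shorter chains, was at -0.76 (adjusted p = 1.59e-09), and the lysophospholipid acyltransferases MBOAT2 and LPCAT3 were at -0.49 (adjusted p = 3.92e-07) and -0.40 (adjusted p = 1.24e-06). CERS1 rose by 1.46 from a low level of 0.703 ± 0.202 to 1.93 ± 0.234 CPM (SD, n = 6 each, adjusted p = 2.37e-06), the peroxisomal thiolase gene SCP2 by 0.61 (adjusted p = 2.02e-09) and the lipoxygenase ALOX15 by 0.29 (adjusted p = 9.65e-06).

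**Figure D4:**
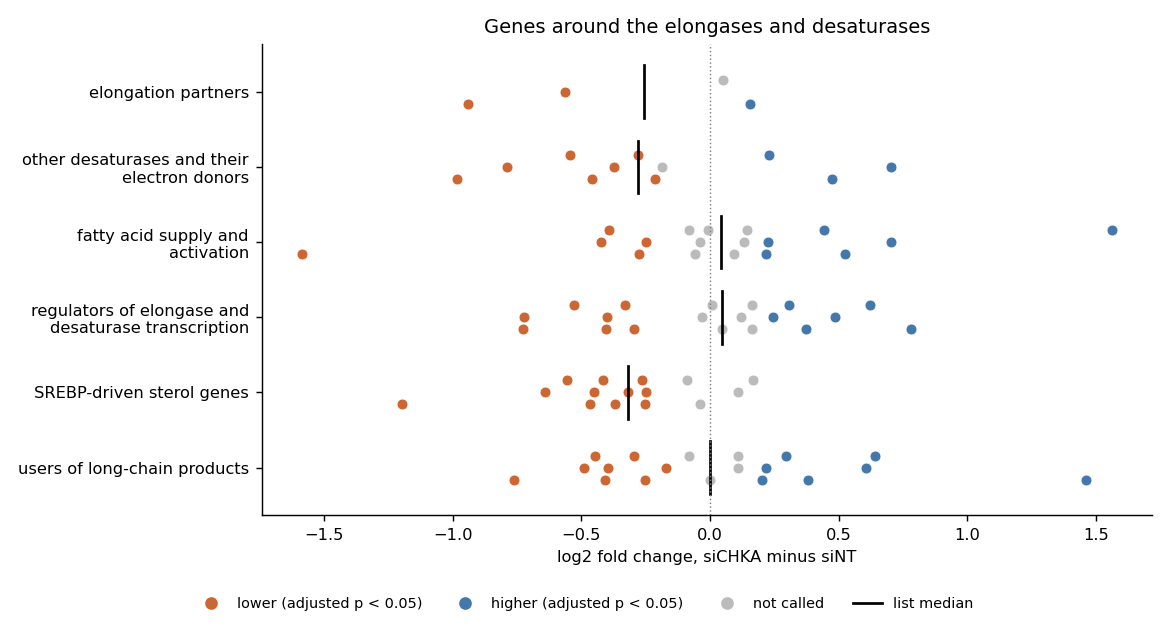
Log2 fold change (siCHKA minus siNT) of every tested gene in the 6 lists around the elongases and desaturases, coloured by call (orange lower, blue higher, grey not called), with the list median as a black bar. In the sterol list 11 of 15 genes are orange and 0 are blue, beside 30.1% lower and 32.1% higher of all tested genes. The medians of the other lists lie between -0.28 and 0.05.

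Other genes moved with the same comparison. The proliferation list was lower in 11 of 11 genes (median -1.42), beside 30.1% of all tested genes. Its summed levels were 1305 to 1355 CPM after siCHKA and 3342 to 3681 CPM after siNT. RRM2, a subunit of ribonucleotide reductase, was at -2.62 (adjusted p = 1.68e-14), CCNB2 at -2.06 (adjusted p = 2.31e-14) and TYMS at -1.63 (adjusted p = 3.17e-14). Of the 10 prostate epithelium markers 6 were lower (60%), 3 higher (30%) and 1 not called, beside 30.1% lower and 32.1% higher of all tested genes. The kallikrein genes KLK3 and KLK2 were at -0.55 (adjusted p = 0.00109) and -1.21 (adjusted p = 3.87e-06) and the protease gene TMPRSS2 at -1.27 (adjusted p = 7.52e-08), whereas KRT8 rose by 0.51 (adjusted p = 1.9e-05) and FOLH1 by 0.36 (adjusted p = 2.76e-05). Without siCHKA samples 1, 3 and 5 KLK3 was at -0.28, KLK2 at -0.87 and KRT8 at 0.33, and without samples 2, 4 and 6 they were at -0.89, -1.68 and 0.66, called each time. The part of the proliferation and prostate genes in the members' values was not tested.

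Most markers of other cells were low. Of the 3 basal markers KRT5 and TP63 were below 1 CPM in every sample and KRT14 rose by 0.58 (adjusted p = 0.00247), with list sums of 1.56 to 2.09 CPM after siCHKA and 0.979 to 1.46 CPM after siNT. Of the stromal, endothelial and blood markers, COL3A1, PTPRC and HBB were below 1 CPM in every sample, HBB at 0 in all 12, and PECAM1 was not analysed here. COL1A1, a stromal collagen gene, rose from 15.01 ± 2.32 to 26.7 ± 2.09 CPM (SD, n = 6 each), by 0.82 (adjusted p = 7.31e-07), and ACTA2 by 0.89 (adjusted p = 0.00984), the latter at about 1 CPM and not called without siCHKA samples 1, 3 and 5 (0.74, adjusted p = 0.0751). The sums of this list were 25.0 to 31.4 CPM after siCHKA and 11.9 to 19.5 CPM after siNT, and their part in the members' values was not tested.

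An earlier look at these same data had picked the 7-letter words GCCAGAT and TGCCCTT, which go with lower transcripts when they lie in the 3′ UTR. Of 12297 tested genes with a 3′ UTR, 23.6% held either word, against 31.2% of 4132 lower genes and 17.7% of 3863 higher genes. The median 3′ UTR was 1329 bases long over all of them, 1552 bases in the lower genes and 1181 bases in the higher genes, and the part of length in these shares was not tested. ELOVL7, FADS1 and the other members held neither, with the exception of FADS2. The 1665-base 3′ UTR of FADS2 holds 1 TGCCCTT, in capitals here, at chr11:61866741-61866769 on the plus strand.
FADS2 3′ UTR site: ctgtctgaaccTGCCCTTactgtgtttaa
The words were found in these data, so these shares support nothing further, and the part of the site in the level of FADS2 was not tested.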

How the data were processed

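Poly(A) RNA of 12 C4-2 samples was sequenced as single-end reads of 40 bases. According to the study's methods and the submitters' notes, the authors aligned reads to GRCh37 (Ensembl release 64) with TopHat2 2.0.4 and counted reads per gene with HTSeq 0.5.3p9. The deposited values are raw counts per gene in 4 files per sample, which were summed, since the labels tie all 4 to 1 sample. Rows that name no gene (33.9 to 39.0% of reads per sample) were left out of library sizes and tests. Names, lengths and coordinates came from GENCODE 44 (GRCh38), in which 44824 of the 54127 identifiers (82.8%) were found, and no coordinate was converted.

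Groups were taken from the labels. Counts were filtered with filterByExpr, scaled by TMM and tested with edgeR 4.0.16 (R 4.3.3, glmQLFit and glmQLFTest, two-sided, Benjamini-Hochberg over 14501 genes, threshold 0.05, no covariate), after the scripts had been tested on simulated data. The study's tool, DESeq 1.10.1, was not used here. Standard errors of log2 fold changes were derived from the F statistic, and intervals are at 95%. Named genes are the members, CHKA, a set of always named genes, mostly of lipid metabolism, and up to 3 genes per list and direction with the smallest p among those called, plus the 3 genes nearest in pattern to ELOVL7 and FADS1. FEN1 was named because it overlaps FADS2. Some genes that this rule picks are not reported here. The members and lists were chosen with earlier results of these data known. Same-numbered samples of the groups did not deviate together (r from -0.396 to 0.321, 1 of 6 samples best with its own number), so numbers were not used as pairs. Alternatives were RLE scaling, DESeq2 1.42.0, no filter, a minimum of 10 counts in all samples, a replicate block, 1 count file per sample, each sample left out, and either set of siCHKA samples left out. Scaling by the reads on genes without TMM was added after seeing the data.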

Additional observations from a re-analysis of the deposited data

Results flagged for a closer look

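The share of reads that fell on no gene, which none of the comparisons above used, was higher after siCHKA, at 5.32% on average (4.82 to 5.97%, n = 6) against 4.48% after siNT (3.95 to 4.90%, n = 6; exact permutation test, two-sided, p = 0.00433, where 0.00216 is the smallest p that 6 samples against 6 can give). Of 4 such read shares and totals compared, the reads on genes (p = 0.58), the ambiguous reads (p = 0.762) and the reads with no unique place (p = 0.0996) did not pass 0.05 in the same exact test. The part of this difference in the members' values was not tested. A search for single samples far from the rest of their group covered 18 groups of member values and found 0, where 0.9 would be found by chance.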

How the results depend on the processing

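ELOVL2, ELOVL6, ELOVL7, FADS1 and FADS2 stayed lower and called under all 21 alternatives. All of these draw on the same samples that chose the families, so the repeated calls are no further support. Over the same 21, between 2995 and 4686 genes were lower and between 3413 and 6666 higher. Both 2995 lower and 6666 higher came from scaling by the reads on genes without TMM, chosen after seeing the data, which moved the median log2 fold change of all tested genes by 0.153. There ELOVL1 (-0.0684) and ELOVL5 (-0.0604) were not called and the sign of FADS3 (0.068) turned. Without TMM 2 elongation partners (median -0.103), 10 regulators (0.2001) and 2 sterol genes (-0.168) were higher, 2 supply genes (0.1956) and 5 users of long-chain products (0.1525) were lower, and the median of the other desaturases was -0.1304. The replicate block gave 4273 lower and 4494 higher genes, with ELOVL7 at -2.08, FADS1 at -1.30 and FADS2 at -1.13, and changed no call of a member. Without siCHKA samples 2, 4 and 6, ELOVL1 (-0.10) and ELOVL5 (-0.11) were no longer called, FADS3 (-0.46) was called, 2 supply genes were lower and 1 sterol gene was higher. Without siCHKA samples 1, 3 and 5, the sign turned for FADS3 (0.19) and ELOVL4 (-0.0107), 0 elongation partners were higher, and the medians were -0.47 for sterol genes and 0.0803 for users of long-chain products. Leaving out single samples gave -0.10 to 0.22 for ELOVL4, negative without siCHKA 3 (-0.09), siNT 1 (-0.0021) or siNT 4 (-0.10), 0 to 1 elongation partners higher, 0 to 1 sterol genes higher, and medians of 0.00974 to 0.142 for the regulators and -0.0611 to 0.0583 for the users of long-chain products. Without a filter 0 elongation partners were higher and their median was 0.0229, since 3 barely expressed genes entered. With 1 count file per sample, 1 sterol gene was higher, 5 users of long-chain products were lower with a median of -0.0811, and ELOVL4 gave no value because it failed the filter. With the longest transcript as the length, levels after siNT were 353.4 CPM per kb for FADS2, 246.4 for ELOVL5, 106.4 for ELOVL7, 95.73 for FADS1, 81.56 for ELOVL1, 7.275 for ELOVL6 and 2.761 for FADS3. Apart from the construction of an alternative, the cause of these changes was not tested. The other alternatives moved the median of all tested genes by at most 0.0533. Depth limits ELOVL3 and ELOVL4 most.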
